A study of Mus musculus with 13 samples.

Results

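Ammonia production and bicarbonate recovery in the kidney were followed through 8 genes, chosen by symbol, and by no threshold on a measured value, from the 35013 gene symbols of the deposited table. They are Slc38a3, Glud1 and Glul, which handle glutamine and ammonia, Slc9a3 and Slc4a4, which move protons and bicarbonate across the tubule cell, and the carbonic anhydrases Car2, Car4 and Car14. The choice was made with earlier results of these data known. All 8 passed the filter on low counts, which kept 16468 genes. The study compared a genetic and an injected model of iron overload with controls, in RNA newly made in the proximal tubule. All 13 RNA-seq libraries are from female kidneys, and the labels name 4 of them Spns1 KO, 5 WT and 4 FeO (iron overload). According to the methods, every mouse carried Megalin3'Cre-Ert, a tamoxifen-activated Cre recombinase driven by the megalin gene, and 1 Uprt allele that Cre switches on, and tamoxifen was given in all groups. The Spns1 KO mice were Spns1 flox/flox, so Spns1, a transporter of late endosomes and lysosomes, was to be lost only where megalin is expressed. The methods give WT and FeO mice the genotype Spns1 flox/+, whereas the labels call both Spns1 WT. Iron sucrose, 12 mg on each of 3 days, was injected in the FeO mice, which were killed 1 week later, and the treatment of the other groups is labelled Control. Uracil phosphoribosyltransferase, the product of Uprt, lets a cell build 4-thiouracil into new RNA, which was captured from whole kidney and selected for poly-A tails. The ages of the mice and whether each library came from a separate mouse are not given in the sources used here, so p-values measure the spread between these libraries.

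The proximal tubule takes up glutamine across its basolateral membrane through SNAT3, the protein of Slc38a3, and releases ammonia from it in the mitochondria, where glutamate dehydrogenase, the protein of Glud1, takes part. Glutamine synthetase, the protein of Glul, runs the other way and binds ammonia back into glutamine. The same cells recover filtered bicarbonate: the exchanger NHE3 (Slc9a3) secretes protons into the lumen, carbonic anhydrases on the membrane (Car4, Car14) and in the cytosol (Car2) interconvert carbon dioxide and bicarbonate, and the cotransporter NBCe1 (Slc4a4) carries bicarbonate out to the blood. In acid loading the kidney is known to raise ammonia production from glutamine and to lower its glutamine synthetase.

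Levels are given as CPM, read counts scaled to a common library total with edgeR's TMM factors. Total counts were 23068023 to 71296474 per library (median 29981814), and the counts behind a member in a single library ranged from 576 for Car4 to 153035 for Slc4a4, so that counting error was small beside the spread between libraries. Spns1, on chromosome 7 from 126370060 to 126377450 of GRCm38, was at 39.0, 44.5, 36.6 and 59.0 CPM in the libraries labelled Spns1 KO and at 57.2, 61.4, 57.6, 39.2 and 62.9 CPM in WT. Its log2 fold change was -0.31 (SE 0.18, adjusted p = 0.225 by edgeR with Benjamini-Hochberg adjustment), or -0.55 with adjusted p = 0.0221 once each library was corrected for a dependence of counts on transcript length and base composition. The ranges of the target overlapped between these groups, and the libraries are called by their labels throughout. The paper reports loss of Spns1 RNA and protein in the proximal tubule of knockout kidneys. The deposited count is per gene, so the deleted part was not counted apart, and the reason for the overlap was not tested. Among the libraries labelled Spns1 KO, number 4 lay nearest to WT in several genes below, and without it the genes called over the whole table rose from 2307 to 3003 higher and from 1243 to 2677 lower against WT. All 10 proximal tubule markers were detected, Lrp2 (megalin) at 548 to 755 CPM in WT, and their summed level was 3619 to 5175 CPM in WT, 7339 to 8408 in the libraries labelled Spns1 KO and 1721 to 4884 in FeO. Markers of other nephron segments were in the captured RNA too, such as Aqp2 of collecting duct principal cells at 135 to 250.1 CPM in WT. No marker of any list was at 0 in all libraries, but the erythroid marker Car1 had a median of 0 CPM in each group and was not tested.

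Per kilobase of transcript, the WT libraries held far more of some members than of others. Glul stood highest with 642 CPM per kilobase (SD 72.9, n = 5), above 99.8% of all tested genes, followed by Glud1 with 259.8 (SD 26.8) and Slc4a4 with 159 (SD 60.5). Slc9a3 at 52.4 (SD 13.2), Car14 at 47.5 (SD 14.8), Car2 at 43.6 (SD 4.16) and Slc38a3 at 37.7 (SD 11.4) followed, and since each differed from the next by less than the larger of their SDs, the order of these neighbours is not resolved. Car4 was lowest with 20.8 CPM per kilobase (SD 4.71), still above 82.5% of tested genes. In FeO, Car4 reached 60.1 CPM per kilobase (SD 13.5, n = 4) and Slc4a4 fell to 65.9 (SD 20.0), so that these members, far apart in WT, stood within their SDs. Glul at 369.8 (SD 83.3, n = 4) and Glud1 at 340.2 (SD 79.1) in the libraries labelled Spns1 KO came within their SDs of each other.

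**Figure D1:**
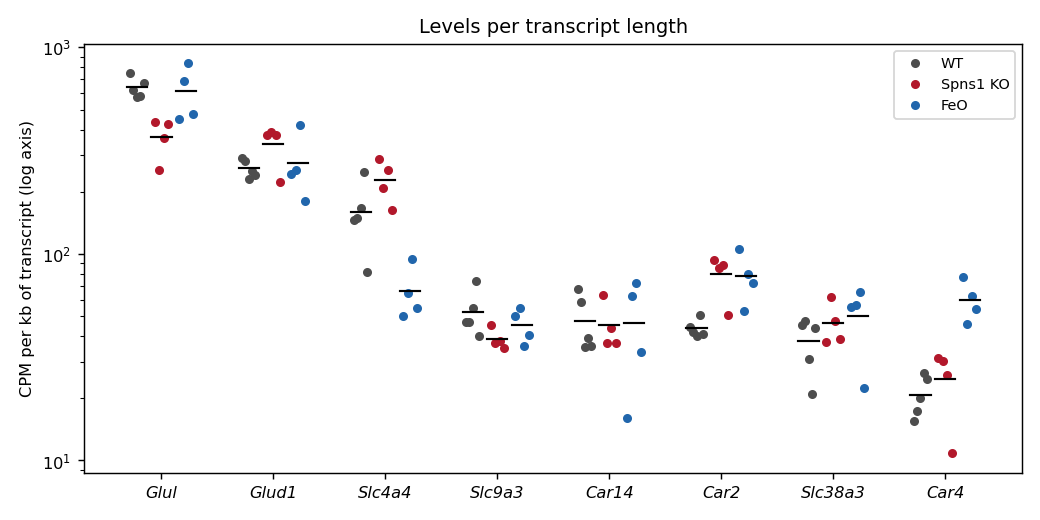
Level of each member in CPM per kilobase of its longest annotated transcript, on a log axis, with 1 point per library and a bar at the group mean. Members are ordered by their WT mean, from Glul at 642 to Car4 at 20.8, and the FeO points of Slc4a4 lie low and those of Car4 high against the other groups.

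Against WT, Glul fell and Car2 rose in the libraries labelled Spns1 KO, and Car4 and Car2 rose and Slc4a4 fell in FeO. The 2 models thus had a higher Car2 in common, while Glul was called in one and Car4 and Slc4a4 in the other. A gene was called when its adjusted p was under 0.05 and its log2 fold change beyond 0.5 in either direction. Of the 8 members, 1 was called higher in the libraries labelled Spns1 KO, where 14% of all tested genes were, and 1 of 8 lower, where 7.55% were. In FeO, 2 of 8 were called higher, where 22.4% of all tested genes were, and 1 of 8 lower, where 19.7% were. Ranges over libraries lay wholly above WT for 0 of 8 members in the libraries labelled Spns1 KO (13.1% of all tested genes). They lay wholly below WT for 1 of 8 (9.38%). In FeO these were 2 of 8 (16.9%) and 0 of 8 (16.4%). With 8 members these shares lie near those of all genes, and nothing is read from them about the members as a set. The median log2 fold change over the members was 0.27 in the libraries labelled Spns1 KO and 0.023 in FeO, beside -0.045 and -0.011 over all tested genes. Both comparisons use the same 5 WT libraries. In bulk RNA, fewer cells of a type and less RNA per cell cannot be told apart.

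**Figure D2:**
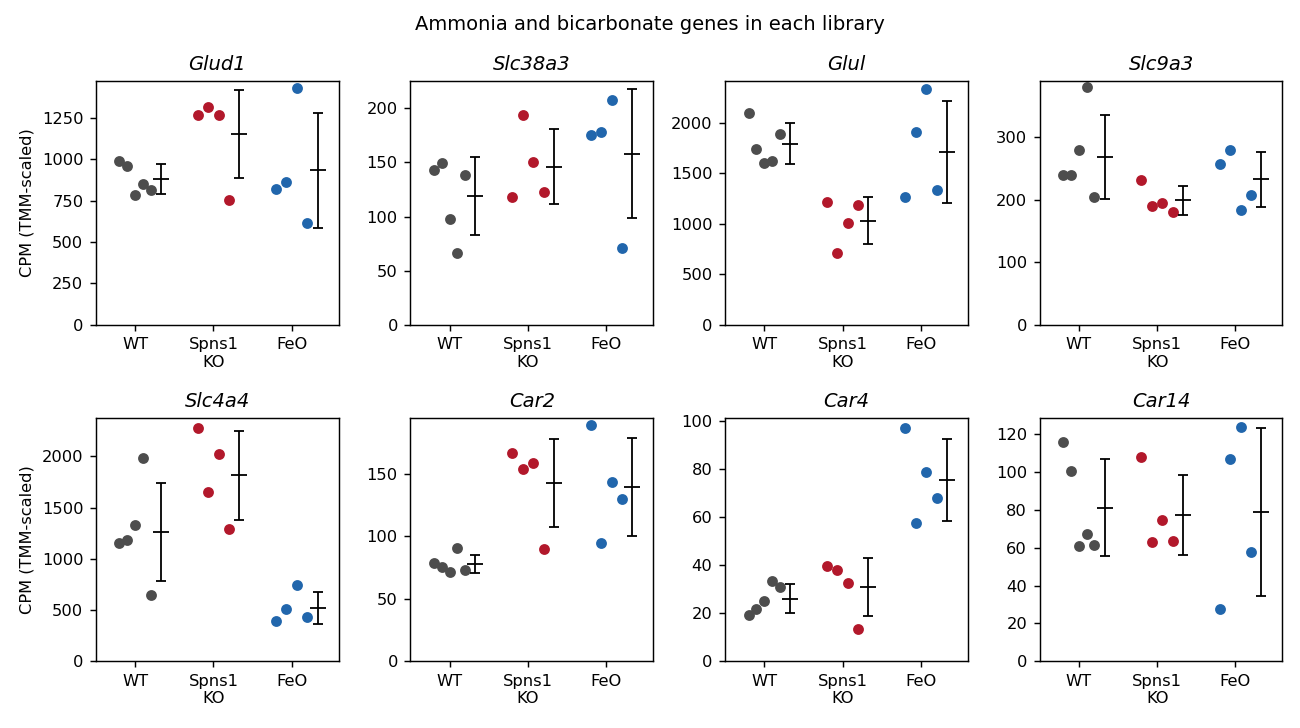
Level of the 8 members in CPM (TMM-scaled, linear axes from 0), with 1 point per library and the group mean with its SD beside the points (n = 5 for WT, 4 for Spns1 KO and 4 for FeO). The FeO points of Car4 (57.7 to 97.3 CPM) lie above all other libraries, and the Spns1 KO points of Glul (711 to 1218 CPM) lie below all other libraries.

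Slc38a3 brings in the glutamine from which ammonia is made (chromosome 9 from 107650634 to 107669530, minus strand). Its level was 143, 149, 97.4, 66.3 and 138 CPM in WT 1 to 5, 118, 194, 150 and 123 CPM in the libraries labelled Spns1 KO 1 to 4, and 175, 178, 207 and 71.1 CPM in FeO 1 to 4. WT 4 and FeO 4 were low and the groups overlapped. The log2 fold change was 0.30 in the libraries labelled Spns1 KO (SE 0.29, 95% interval -0.32 to 0.92, adjusted p = 0.476 by edgeR) and 0.41 in FeO (SE 0.29, interval -0.21 to 1.03, adjusted p = 0.258). Both intervals span 0 and reach past the limit of 0.5. Without FeO 4, the log2 fold change in FeO was 0.68 and passed the call (adjusted p = 0.0401 by edgeR).

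Glud1, glutamate dehydrogenase, releases ammonia from glutamate (chromosome 14 from 34310727 to 34345265, plus strand). It was at 993, 959, 785, 851 and 816 CPM in WT, at 1271, 1319, 1271 and 753 CPM in the libraries labelled Spns1 KO, and at 824, 866, 1432 and 615 CPM in FeO. Libraries labelled Spns1 KO 1 to 3 were above every WT library and number 4 was below every WT library, while in FeO 1 library was high and another low. Its log2 fold change was 0.39 in the libraries labelled Spns1 KO (SE 0.24, interval -0.12 to 0.89, adjusted p = 0.245 by edgeR) and 0.085 in FeO (SE 0.24, interval -0.42 to 0.59, adjusted p = 0.785). Leaving out the library labelled Spns1 KO 4 gave 0.55 with adjusted p = 0.0754 (edgeR), which still missed the limit. Of its 31-base stretches, 10.4% also occur in other genes, Glud-ps foremost, so its count is uncertain in part.

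Glul, glutamine synthetase, consumes ammonia (chromosome 1 from 153899944 to 153909723, plus strand). It was at 2097, 1745, 1608, 1625 and 1887 CPM in WT, at 1218, 711, 1012 and 1189 CPM in the libraries labelled Spns1 KO, and at 1264, 1911, 2335 and 1333 CPM in FeO. Every library labelled Spns1 KO was below every WT and every FeO library, while FeO spread to both sides of WT. In the libraries labelled Spns1 KO it fell by 0.80 on the log2 scale, to 0.576 of WT (SE 0.23, interval -1.28 to -0.31, adjusted p = 0.0213 by edgeR). In FeO the log2 fold change was -0.067 (SE 0.22, interval -0.55 to 0.41, adjusted p = 0.821 by edgeR). The fall missed the limit without the library labelled Spns1 KO 2 (-0.65, adjusted p = 0.0826 by edgeR) and without number 3 (-0.78, adjusted p = 0.0648), and without number 4 it was -0.87 (adjusted p = 0.0152). Its count is uncertain in part, since 20.4% of its 31-base stretches occur in other genes (Glns-ps1, AC134576.3, Teddm2) and Teddm2 overlaps it on the other strand, which the counting is not stated to keep apart.

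Set against Glud1 in the same library, a ratio of counts that needs no scaling for library size, Glul gave 2.11, 1.82, 2.05, 1.91 and 2.31 in WT, 0.958, 0.539, 0.796 and 1.58 in the libraries labelled Spns1 KO, and 1.53, 2.21, 1.63 and 2.17 in FeO. The libraries labelled Spns1 KO 1 to 3 were below all others and number 4 stood among the low FeO libraries. This ratio was chosen after the values were seen and was given no test.

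Slc9a3, the apical sodium-proton exchanger through which most proton secretion of the proximal tubule runs, is on chromosome 13 from 74121457 to 74169442, plus strand. It was at 239, 239.8, 279, 379 and 204 CPM in WT, at 232, 189.7, 195 and 179 CPM in the libraries labelled Spns1 KO, and at 257, 279.7, 184 and 208 CPM in FeO. Number 1 of the libraries labelled Spns1 KO lay inside the WT range and the other three below it, and WT 4 was high. Its log2 fold change was -0.43 in the libraries labelled Spns1 KO (SE 0.19, interval -0.84 to -0.022, adjusted p = 0.116 by edgeR) and -0.21 in FeO (SE 0.19, interval -0.62 to 0.20, adjusted p = 0.386), and neither was called.

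Slc4a4, the basolateral exit for bicarbonate, is on chromosome 5 from 88886818 to 89239653, plus strand. In WT it was at 1153, 1187, 1327, 1986 and 650.4 CPM, in the libraries labelled Spns1 KO at 2281, 1654, 2025 and 1294 CPM, and in FeO at 397, 513, 749.6 and 433 CPM. FeO lay low, with its highest library just above the lowest WT library, and 2 libraries labelled Spns1 KO lay inside the WT range and 2 above it. In FeO it fell by 1.27 on the log2 scale, to 0.415 of WT (SE 0.30, interval -1.90 to -0.64, adjusted p = 0.00361 by edgeR). In the libraries labelled Spns1 KO the log2 fold change was 0.52 (SE 0.29, interval -0.086 to 1.13, adjusted p = 0.195 by edgeR). Leaving out each library in turn kept the fall in FeO between -1.49 and -1.03 and its call each time, but the call was lost in a fit corrected for transcript length and GC content (-0.62, adjusted p = 0.0797 by edgeR). Proximal tubule markers moved beside it in the libraries labelled Spns1 KO, where 7 of 10 were called higher, Cubn by 1.02 on the log2 scale and Slc5a2 by 1.28. In FeO 1 of the 10 was called higher and 1 lower, Slc5a12, with a log2 fold change of -1.46. Markers of early proximal segments summed to 1776 to 2863 CPM in WT, 3759 to 4585 in the libraries labelled Spns1 KO and 615 to 2715 in FeO. Those of the late segment summed to 633 to 1088, 726 to 1055 and 512 to 822 CPM in that order. In each of these lists 2 of 5 markers were called higher in the libraries labelled Spns1 KO. The part of any of these markers in the values of Slc4a4 was not tested.

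Set against Slc9a3 of the same library, Slc4a4 gave count ratios of 4.82, 4.95, 4.76, 5.24 and 3.19 in WT, 9.85, 8.72, 10.4 and 7.22 in the libraries labelled Spns1 KO, and 1.54, 1.83, 4.08 and 2.08 in FeO. The libraries labelled Spns1 KO were above all others, and all FeO libraries but number 3 were below all WT libraries. Relative to Slc9a3 RNA, Slc4a4 RNA was thus high in the libraries labelled Spns1 KO and low in FeO, but for FeO 3. Such a ratio removes library scaling but not a dependence of counts on transcript length and GC content. Correcting for that dependence moved the log2 fold change in FeO from -1.27 to -0.62 for Slc4a4 and from -0.21 to 0.11 for Slc9a3. The ratio was chosen after the values were seen and was given no test.

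Car2, the cytosolic carbonic anhydrase, is found in the proximal tubule and in intercalated cells (chromosome 3 from 14886273 to 14900770, plus strand). It was at 78.9, 75.3, 71.9, 90.4 and 73.4 CPM in WT, a narrow spread (coefficient of variation 9.54%), at 167, 154, 159 and 90.2 CPM in the libraries labelled Spns1 KO, and at 189, 94.6, 144 and 129.5 CPM in FeO. All FeO libraries and all libraries labelled Spns1 KO but number 4 were above every WT library. It rose by 0.87 on the log2 scale in the libraries labelled Spns1 KO (1.83-fold, SE 0.20, interval 0.43 to 1.30, adjusted p = 0.00785 by edgeR) and by 0.84 in FeO (1.79-fold, SE 0.20, interval 0.40 to 1.27, adjusted p = 0.00471). Without the library labelled Spns1 KO 4 the first of these was 1.04 (adjusted p = 0.000798 by edgeR). Of 7 intercalated cell markers, 3 were called higher and 1 lower (Foxi1) in the libraries labelled Spns1 KO, and 3 higher and 0 lower in FeO, and their summed level was 413 to 614 CPM in WT, 408 to 532 in the libraries labelled Spns1 KO and 302 to 923 in FeO. Their part in the rise of Car2 was not tested.

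Car4, anchored to the luminal membrane, is on chromosome 11 from 84957786 to 84966044, plus strand. It was at 19.4, 21.8, 25.2, 33.3 and 31 CPM in WT, at 39.6, 38.1, 32.7 and 13.6 CPM in the libraries labelled Spns1 KO, and at 97.3, 57.7, 78.9 and 68.1 CPM in FeO. All FeO libraries stood above all others, and the library labelled Spns1 KO 4 was the lowest of all. In FeO it rose by 1.53 on the log2 scale (2.89-fold, SE 0.27, interval 0.97 to 2.10, adjusted p = 0.000691 by edgeR), the largest change of any member against WT in this fit. In the libraries labelled Spns1 KO the log2 fold change was 0.25 (SE 0.26, interval -0.32 to 0.81, adjusted p = 0.519 by edgeR), and without number 4 it was 0.50 (adjusted p = 0.0619). The rise in FeO was called in every alternative tried, with log2 fold changes of 1.03 to 1.66. Principal cell markers rose beside it, 4 of 5 being called higher in FeO, with a summed level of 262 to 474 CPM in WT and 459 to 1178 in FeO. Thick ascending limb markers overlapped more, at 1324 to 2803 CPM in WT and 1540 to 3945 in FeO, with 3 of 5 called higher. Proximal tubule markers summed to 3619 to 5175 CPM in WT and 1721 to 4884 in FeO, with 1 of 10 called higher and 1 lower. Of 5 tested immune and 5 tested erythroid markers, 4 each were called higher in FeO. Of 5 endothelial markers, 2 were called higher and 1 lower in FeO. Their summed level was 190 to 242 CPM in WT and 175 to 314 in FeO. The part of any of these cells in the rise of Car4 was not tested.

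The start regions of Car4 and Slc4a4, the members with the largest and opposite changes in FeO, are given below from RefSeq (GRCm38.p6), with 250 bases before and 50 after the annotated start. For Car4 the window is chr11:84957504-84957803 on the plus strand, with capitals for the hypoxia response core ACGTG, read here on the other strand, and for TATAAA. Slc4a4 has an outer start and an internal start, which is the one known for the kidney form, and the window of the latter is chr5:89027716-89028015 on the plus strand, with no capitals because no motif searched was found in it.
Car4: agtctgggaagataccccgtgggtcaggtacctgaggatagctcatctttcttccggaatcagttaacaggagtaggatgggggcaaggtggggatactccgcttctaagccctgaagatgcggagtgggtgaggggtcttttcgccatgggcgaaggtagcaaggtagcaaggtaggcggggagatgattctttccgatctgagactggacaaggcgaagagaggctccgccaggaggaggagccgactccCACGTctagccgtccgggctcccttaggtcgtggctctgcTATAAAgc
Slc4a4 internal start: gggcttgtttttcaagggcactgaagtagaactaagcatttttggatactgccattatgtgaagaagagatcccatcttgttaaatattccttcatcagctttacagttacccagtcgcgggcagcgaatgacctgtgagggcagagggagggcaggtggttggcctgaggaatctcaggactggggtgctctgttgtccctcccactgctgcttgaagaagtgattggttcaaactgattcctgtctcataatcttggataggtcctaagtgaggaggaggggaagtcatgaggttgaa
The gene counts do not separate the starts of Slc4a4. Windows were found for 6 of the 8 members, 7 in all. On either strand, ACGTG was in 3 of the 7 (Car4, Car14, Slc9a3), against 19.6% of 32851 windows of all genes, and TATAAA in 1 of the 7 (Car4), against 13.6%. The HNF1 half-site GTTAAT (7.1% of all windows), the cAMP response element TGACGTCA (1.79%) and the antioxidant response element TGACNNNGC (12.4%) were in none of the 7, which says only that these letters are not in these windows.

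Car14, a carbonic anhydrase that spans the membrane, is on chromosome 3 from 95897768 to 95904691, minus strand. It was at 116, 100.3, 60.7, 67.1 and 61.6 CPM in WT, at 108, 63.1, 74.7 and 63.4 CPM in the libraries labelled Spns1 KO, and at 27.5, 107, 124 and 57.5 CPM in FeO. The groups overlapped throughout, and FeO spread most (coefficient of variation 56.1%). Its log2 fold change was -0.070 in the libraries labelled Spns1 KO (SE 0.35, interval -0.81 to 0.67, adjusted p = 0.899 by edgeR) and -0.040 in FeO (SE 0.35, interval -0.78 to 0.70, adjusted p = 0.932). These intervals leave room for changes beyond the limit of 0.5 in either direction. The overlapping gene Aph1a on the other strand shares 16.4% of its 31-base stretches, and reads within these stretches cannot be told apart without strand.

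**Figure D3:**
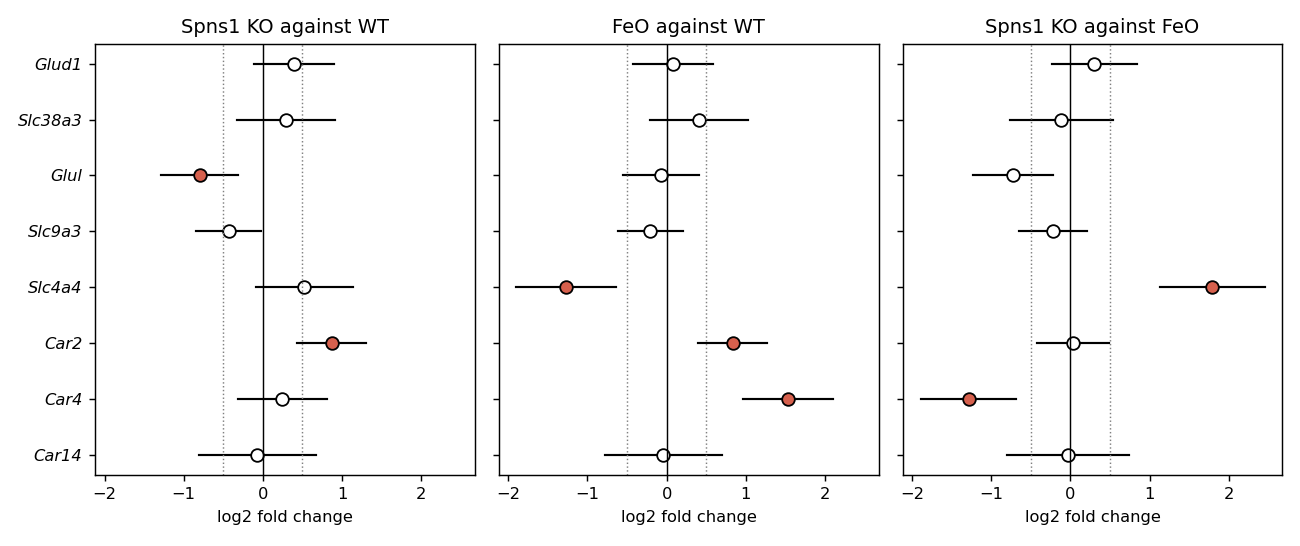
Log2 fold change of each member in the 3 comparisons, with its 95% interval from edgeR's quasi-likelihood fit and filled points for called genes. Dotted lines mark 0.5 in either direction, and Slc4a4 and Car4 lie on opposite sides of 0 in FeO against WT and in Spns1 KO against FeO.

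The 2 models were also compared with each other, which tests whether a member differed between them. Slc4a4 was higher in the libraries labelled Spns1 KO than in FeO by 1.79 on the log2 scale (3.47-fold, SE 0.31, interval 1.13 to 2.46, adjusted p = 0.00406 by edgeR), with no overlap between the groups. Car4 was lower by 1.28 (SE 0.28, interval -1.89 to -0.68, adjusted p = 0.0103 by edgeR), again with no overlap. These were 1 of 8 members called higher, where 6.76% of all tested genes were, and 1 of 8 called lower, where 8.1% were. By range, 1 of 8 members lay wholly above and 2 of 8 wholly below, beside 8.25% and 9.1% of all tested genes. Glul did not overlap either, with a log2 fold change of -0.73 (SE 0.24, interval -1.23 to -0.22), and its adjusted p of 0.0502 by edgeR missed the limit. Under 6 alternative settings, among them DESeq2 (-0.75, adjusted p = 0.00915) and limma-voom (-0.72, adjusted p = 0.045), it passed, as it did in edgeR without FeO 1 (-0.85, adjusted p = 0.0456) or FeO 4 (-0.84, adjusted p = 0.0303). Car2, called in both models against WT, had a log2 fold change of 0.033 between them (SE 0.22, interval -0.43 to 0.49, adjusted p = 0.932 by edgeR). The differences for Glud1 (0.30, interval -0.23 to 0.84), Slc38a3 (-0.11, interval -0.77 to 0.54), Slc9a3 (-0.22, interval -0.65 to 0.21) and Car14 (-0.030, interval -0.81 to 0.75) were not called.

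Several of these values depended on a joint correction for transcript length and GC content, whose parts were not told apart. Slc4a4 has the longest transcript of the members (7931 bases) and Car4 the shortest (1256 bases), and fits corrected in each library for a smooth dependence on transcript length and GC moved them in opposite directions. The fall of Slc4a4 in FeO lost its call, as given above, and in the libraries labelled Spns1 KO its log2 fold change went from 0.52 to 0.96 and was called (adjusted p = 0.0239 by edgeR). Car4 in FeO went from 1.53 to 1.06 and stayed called (adjusted p = 0.00928 by edgeR), and in the libraries labelled Spns1 KO it went from 0.25 to -0.16. Car2 (1788 bases) went from 0.87 to 0.69 in the libraries labelled Spns1 KO and from 0.84 to 0.56 in FeO, and both stayed called (adjusted p = 0.0301 and 0.0391 by edgeR). Slc9a3 (5118 bases) turned from -0.21 to 0.11 in FeO. Between the 2 models the trend weighed less, since Slc4a4 stood at 1.57 and Car4 at -1.22 with it removed, and both stayed called (adjusted p = 0.00384 and 0.0126 by edgeR). The cause of the trend was not tested.

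**Figure D4:**
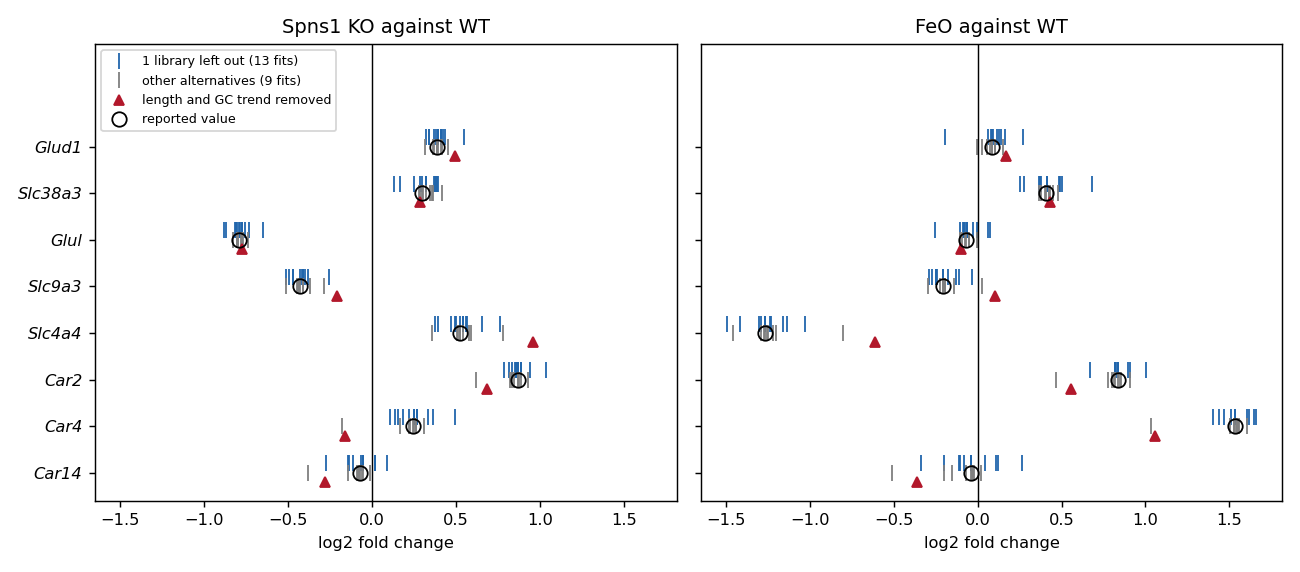
Log2 fold change of each member against WT (left Spns1 KO, right FeO) as reported (circles), with 1 library left out (blue ticks), with the length and GC trend removed (triangles) and under the 9 other alternatives (grey ticks). Triangles stand to the right of the circles for Slc4a4 and Slc9a3 and to the left for Car2 and Car4.

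The genes around the members in the ammonia pathway moved in both directions. Of 29 tested genes of glutamine and glutamate transport, deamination and the malate shuttle, 9 were called higher and 3 lower in the libraries labelled Spns1 KO, and 6 higher and 4 lower in FeO, with median log2 fold changes of 0.27 and 0.25 beside -0.045 and -0.011 over all tested genes. Over all tested genes, 14% were called higher and 7.55% lower in the first comparison and 22.4% and 19.7% in the second, so that in FeO neither share of the list lay above that of all genes. Without FeO 3, 6 of them were called in FeO in place of 10. Of 10 proximal tubule markers, 7 were called higher in the libraries labelled Spns1 KO. Their part in the rises of this list was not tested. Pck1, which carries the carbon of glutamine on to glucose, spread widely, at 8271 ± 3201 CPM in WT, 5910 ± 1748 in the libraries labelled Spns1 KO and 6329 ± 3536 in FeO, and was not called in either model. Each error here is the SD over 5, 4 and 4 libraries in that order.

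Cltrn (collectrin), a partner of amino acid transporters of the brush border, changed most of the ammonia list. It went from 135 ± 37.4 CPM in WT to 555 ± 98.1 in the libraries labelled Spns1 KO and 136 ± 79.8 in FeO, log2 fold changes of 2.04 (SE 0.32, adjusted p = 0.000782 by edgeR) and 0.014 (adjusted p = 0.974). Between the models its log2 fold change was 2.03 (adjusted p = 0.00381 by edgeR). Mdh2, mitochondrial malate dehydrogenase, rose in both, from 81.9 ± 8.46 CPM to 186 ± 50.7 and 194 ± 38.3. The carrier of oxoglutarate and malate, Slc25a11, rose by 0.86 and 1.47 on the log2 scale. Slc38a1 and Slc38a2, further sodium-coupled carriers of glutamine, fell in both: Slc38a1 by 1.27 and 0.77 on the log2 scale and Slc38a2 by 1.09 and 1.06. Slc38a2 was at 600 CPM in the library labelled Spns1 KO 4, inside the WT range, and at 172 to 203 CPM in the other three.

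Both Got1 and Slc7a8 went opposite ways in the 2 models. Got1, cytosolic aspartate aminotransferase, was at 324 ± 70.2 CPM in WT, 169.9 ± 17.7 in the libraries labelled Spns1 KO and 536 ± 225 in FeO. Its log2 fold change was -0.93 in the libraries labelled Spns1 KO, 0.73 in FeO and -1.66 between the models (adjusted p = 0.013, 0.0205 and 0.00245 by edgeR). Slc7a8, a basolateral exchanger of neutral amino acids, was at 243.5 ± 67.0 CPM in WT, 449 ± 116 in the libraries labelled Spns1 KO and 145 ± 47.2 in FeO. Its log2 fold changes were 0.88, -0.75 and, between the models, 1.63 (adjusted p = 0.0198, 0.0257 and 0.00324 by edgeR). Slc7a7, another basolateral exchanger, rose by 1.28 in the libraries labelled Spns1 KO (adjusted p = 0.00778 by edgeR), and Got2, mitochondrial aspartate aminotransferase, by 0.81 in FeO (adjusted p = 0.0102). Of the last, 30.9% of the 31-base stretches occur in other genes.

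In the list of bicarbonate and proton transport, 34 of 36 genes were tested. Of these, 6 were called higher and 1 lower in the libraries labelled Spns1 KO and 10 higher and 3 lower in FeO, with median log2 fold changes of 0.29 and 0.22. Beside the 14% and 7.55% of all tested genes for the former and the 22.4% and 19.7% for the latter, the counts are given as a description only. Leaving out 1 library moved the count of calls in the libraries labelled Spns1 KO from 7 to 4 (without number 1 or 3) and to 12 (without number 4). Proximal tubule markers, 7 of 10 called higher in these libraries, may move with this list, which was not tested. Slc9a3r1, Slc9a3r2 and Pdzk1, scaffolds that hold NHE3 at the brush border, were each called in 1 model and Slc9a3 itself in neither, without a test of scaffold against exchanger. Slc9a3r1 was at 98.6 ± 10.8 CPM in WT, 133 ± 39.8 in the libraries labelled Spns1 KO and 238 ± 81.6 in FeO, where it rose by 1.27 on the log2 scale (SE 0.24, adjusted p = 0.00107 by edgeR), while its log2 fold change of 0.43 in the former model was not called (adjusted p = 0.21). Pdzk1 and Slc9a3r2 rose by 1.07 each in the libraries labelled Spns1 KO (adjusted p = 0.0256 and 0.00511 by edgeR), and had log2 fold changes of 0.18 and 0.46 in FeO, neither called. Ezr (ezrin), which ties these scaffolds to actin and is named here after its values were seen, was at -0.099 and 0.088 and not called. Overlapping genes share 37.5% of the 31-base stretches of Pdzk1.

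Among other carbonic anhydrases, Car12, of the basolateral membrane, rose by 0.94 on the log2 scale in the libraries labelled Spns1 KO (adjusted p = 0.0088 by edgeR) and was at -0.089 in FeO, a difference of 1.03 between the models (adjusted p = 0.013). Car3 rose by 1.35 in FeO (adjusted p = 0.0333 by edgeR) with a wide spread, 37.7 to 169 CPM against 18.7 to 71 in WT. Car15, Car11, Car8 and Car5b rose in FeO too, by 1.12, 1.05, 0.89 and 0.57 (adjusted p = 0.0041, 0.0044, 0.0058 and 0.023 by edgeR). Car11 also rose in the libraries labelled Spns1 KO, by 0.91 (adjusted p = 0.018 by edgeR). Of the 31-base stretches of Car15, 61.3% occur in other genes. The sodium bicarbonate cotransporter Slc4a7 fell in both models, by 0.93 and 0.54 (adjusted p = 0.00537 and 0.0396 by edgeR). Sgk1, a kinase that acts on sodium transport, fell in FeO by 1.49 (adjusted p = 0.01 by edgeR). In the libraries labelled Spns1 KO its log2 fold change was -1.025 and was not called (adjusted p = 0.081 by edgeR). Aqp1, the water channel of the proximal tubule, rose by 0.86 and 1.2 (adjusted p = 0.00754 and 0.000618 by edgeR).

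Genes of the intercalated cells, which secrete acid or base in the collecting duct and also hold Car2, gave 3 higher and 3 lower of 16 in the libraries labelled Spns1 KO (median log2 fold change -0.14) and 8 higher and 1 lower in FeO (median 0.70), beside medians of -0.045 and -0.011 over all tested genes. The list mixes cell types, since Slc26a4 (pendrin) and Slc4a9 mark the base-secreting kind. Of all tested genes, 14% were called higher and 7.55% lower in the libraries labelled Spns1 KO, and 22.4% and 19.7% in FeO. Slc4a1, its basolateral bicarbonate exchanger, rose in both, by 1.43 and 1.72 on the log2 scale, as did the channel Aqp6, by 1.61 and 1.33, and the proton pump subunit Atp6v1g3, by 1.02 and 1.13. Rhbg, an ammonia channel, rose by 1.54 in FeO, but 60.8% of its 31-base stretches occur in Gm38392. Foxi1, the transcription factor of these cells, the oxoglutarate receptor Oxgr1 and the receptor Kit fell by 0.85, 1.13 and 0.80 in the libraries labelled Spns1 KO, and Kit fell by 0.66 in FeO. Between the models 5 of the 16 were called, all lower in the libraries labelled Spns1 KO, namely Slc26a4, Hepacam2, Atp6v0d2, Foxi1 and Atp6v1c2, where 8.1% of all tested genes were called lower. That count became 2 in a fit of these groups only, 1 without the library labelled Spns1 KO 1, number 4 or FeO 1, 3 without number 2 and 8 without FeO 2. Against WT, the 6 calls of this list in the libraries labelled Spns1 KO became 3 without number 1, number 3, WT 3 or WT 4. Slc4a1 is also a red cell gene, and the summed level of 6 erythroid markers was 9.40 to 36.5 CPM in WT, 51.8 to 175 in the libraries labelled Spns1 KO and 26.3 to 238 in FeO. Their part in its rise was not tested.

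**Figure D5:**
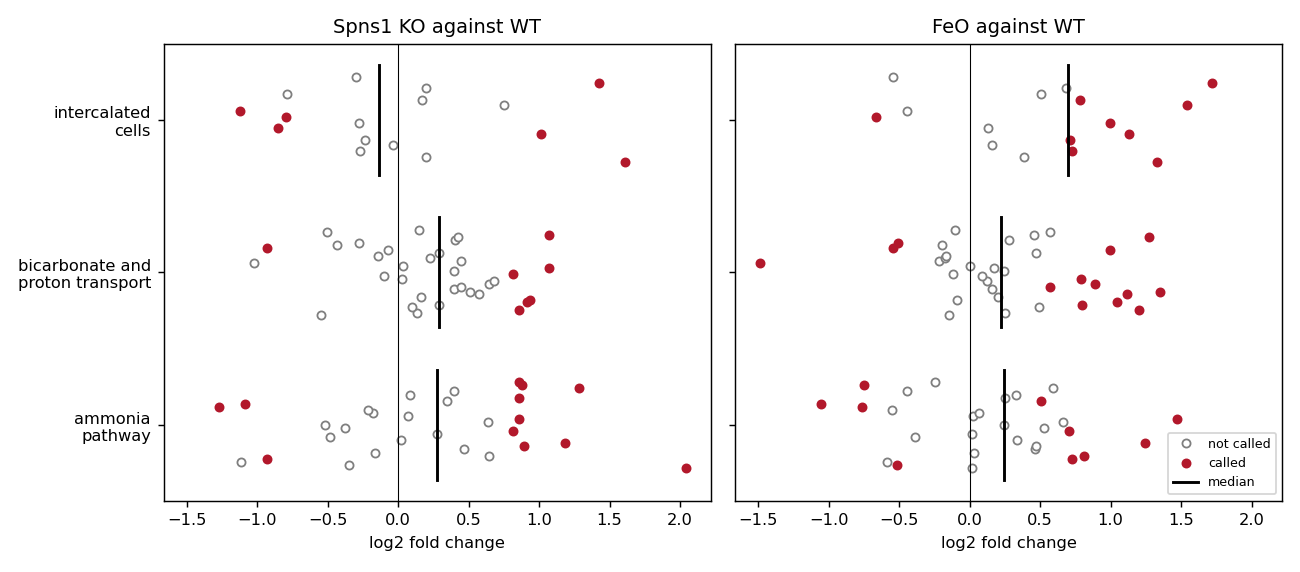
Log2 fold change of each tested gene of the 3 pathway lists against WT (left Spns1 KO, right FeO), with filled points for called genes and a bar at the list's median. Points are spread vertically only so that they can be seen, and the median of the intercalated cell list is -0.14 on the left and 0.70 on the right.

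By their course over the 13 libraries, the gene most like each member lay outside these lists. The measure was Pearson's r of log2 CPM over 13 libraries among 12208 genes whose mean count reached 100, a description in which all points share the 3 groups and the scaling. Nearest to Glud1 stood Aco1 (r = 0.964), cytosolic aconitase, which also acts as an iron regulatory protein, and nearest to Car2 stood Atp5a1 (0.982), a subunit of mitochondrial ATP synthase. Closest to the other members were Ssbp3 for Car4 (0.978), Col8a1 for Slc4a4 (0.966), Gemin5 for Slc9a3 (0.958), Mocos for Slc38a3 (0.908), Lyrm1 for Glul (0.892) and Tnfaip8 for Car14 (0.885). Among the members themselves, the highest r was 0.661, of Car2 with Car4, and the lowest -0.597, of Slc4a4 with Car4.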

How the data were processed

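Nascent kidney RNA labelled with 4-thiouracil was sequenced in paired-end reads. The authors deposited 1 table of estimated counts per gene symbol for the 13 libraries, whole numbers without normalization. The submitters' notes name bcl2fastq 2.19, kallisto 0.44.0, DESeq2 and GRCm38, whereas the paper's methods describe alignment with STAR and counting with HTSeq, and which of these made the table is not given in the sources used here. Groups were taken from the labels. The counts were scaled by TMM factors, filtered with filterByExpr and tested in a single fit of all 13 libraries with edgeR 4.0.16 (R 4.3.3, glmQLFit and glmQLFTest, Benjamini-Hochberg over 16468 genes). A gene was called at an adjusted p under 0.05 and a log2 fold change beyond 0.5. Intervals are 95% from the fit's standard error and degrees of freedom. The fit was tested on simulated data. DESeq2 1.42.0, limma 3.58.1 (voom), other scalings, no filter, fits of only the groups compared, thinning to the smallest library, a replicate block, each library left out and a trend on transcript length and GC content (mgcv 1.9.3) were alternatives. Positions, lengths and shared 31-base stretches came from GENCODE M21 (GRCm38), which matched 97.7% of symbols, and start windows from RefSeq. Named genes were all members, Pck1, Slc9a3r1, and from each pathway list up to 3 called genes in each direction with the largest change against WT, and some genes under this rule are not reported here. Genes listed by name as a full set of 5 or fewer calls were added after the values were seen. The members and lists were chosen with earlier results of these data known. At most 253 tested genes had equal counts in any 2 libraries, so none was taken for a duplicate.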

Additional observations from a re-analysis of the deposited data

Results flagged for a closer look

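In the libraries labelled Spns1 KO, Glud1 was lowest in number 4, at 752.8 CPM, with the other three at 1271 to 1319, a gap wider than Dixon's limit for 4 libraries. Of 24 sets of a gene and a group tested in this way it was the only one, where chance gives about 1 in 20. The effects of the 2 models on Slc4a4 differed, by 1.79 on the log2 scale for the libraries labelled Spns1 KO against FeO. For Car4 the same difference was -1.28. Both were called by edgeR's quasi-likelihood test (adjusted p = 0.00406 and 0.0103).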

How the results depend on the processing

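Over all genes, the counts for the libraries labelled Spns1 KO against WT (2307 higher, 1243 lower) became 1045 and 346 with the replicate block and the length and GC trend removed, and the lower count became 747 with the trend alone removed and 793 with no filter. Leaving out 1 library gave 1531 to 3003 higher and 504 to 2677 lower (527, 525, 504 and 2677 without Spns1 KO 1 to 4, 560 without WT 3). For FeO against WT the lower count went from 3252 to 2121 with the trend removed and to 1845 with the block as well. Between the models, 1113 higher and 1334 lower became 441 and 599 in a fit of these groups only, and 545 to 1457 and 636 to 1630 with 1 library left out, lowest without FeO 1. Of the members, with the trend removed 2 were called higher in the libraries labelled Spns1 KO and 0 lower in FeO. The replicate block took the lower call of Glul (-0.78, adjusted p = 0.0682 by edgeR), leaving 0 members called lower, and with the trend removed as well also the calls of Car2, leaving 0 higher in the libraries labelled Spns1 KO and 1 in FeO. With 1 library left out, 0 to 1 members were called lower in the libraries labelled Spns1 KO and 1 to 2 between the models. DESeq2 size factors, upper-quartile factors, DESeq2, limma-voom, thinning and the trend each gave 2 called lower between the models. The block took the calls in the intercalated cell list from 6 to 3 in the libraries labelled Spns1 KO and from 5 to 3 between the models, each becoming 1 with the trend removed too. That last setting left 6 of 12 and 4 of 10 calls in the ammonia list against WT, and 2 of 7 and 8 of 13 in the bicarbonate list. Reversals concerned values that were not called. Glud1 in FeO was -0.0064 with the block and -0.20 to 0.27 with 1 library left out. Slc9a3 in FeO was 0.11 with the trend removed and 0.028 with the block too, and Car4 in the libraries labelled Spns1 KO -0.16 and -0.18. Car14 in FeO was 0.018 with no filter, and between the models 0.14 by limma-voom, 0.080 with the trend removed, 0.0062 with the block and 0.13 with both. With 1 library left out, Car14 ranged from -0.27 to 0.092, from -0.34 to 0.27 and from -0.32 to 0.27 in the 3 comparisons, Glul in FeO from -0.25 to 0.073, and between the models Slc38a3 from -0.36 to 0.046 and Car2 from -0.11 to 0.22. The causes of these shifts were not tested. The numbers in the labels did not pair the libraries, since deviations from the group means of the 12 same-numbered pairs correlated at -0.30 to 0.26, with 4 over 0.1. Each member had at least 576 counts in every library, and among the members thinning to the smallest library changed only the call of Glul between the models. Thinning only lowers depth, so it cannot show whether deeper libraries would have given more calls.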
